A study of Mus musculus with 4 samples.

Results

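The genes described here drive and execute the cell division cycle: cyclins and cyclin-dependent kinases (CDKs), E2F factors, replication genes, Polo-like and Aurora kinases, centromere and checkpoint proteins, and the machinery of anaphase. They were chosen by symbol alone, as the probes whose name in the deposited signals began with, or was, a symbol of these families. The rule took 115 probes of 73 gene symbols, of 25697 probes and 17853 symbols in all. The platform annotation gave 111 of these probes their gene, and 4 (both probes of Ccnb1, that of Cenpl and 1 of Cdk8) are named by the file's symbol only. A total of 22 of the genes had more than 1 probe, and at most 4.

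The cells were mouse cumulus cells (CCs), somatic cells wrapped around the oocyte of an antral follicle. They came from B6C3F1 females that had received folligon 48 hours earlier. The labels give an age of 6 weeks, and the study's methods 4 to 6 weeks. The cells were pooled by how the chromatin of their oocyte was arranged. SN-CCs came from oocytes with a ring of chromatin around the nucleolus (surrounded nucleolus, developmentally competent), and NSN-CCs from oocytes without it (non-surrounded nucleolus, developmentally incompetent). Each type gave 2 pools, each read on its own Illumina mouse BeadChip, and the question of the comparison was which transcripts of the CCs differ between the types. The labels give the tissue as oocytes, whereas titles, source names and methods say cumulus cells. Both types of CCs came from the same strain and hormone treatment. The study calls the pools biological replicates, no source used here ties a pool to single animals, and the p-values measure only the spread between these 4 pools.

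A cell commits to division in G1, when D-type cyclins with their kinases release the E2F factors from the retinoblastoma protein, and the cyclin E and Cdk2 pair then starts replication. Loading factors place the MCM helicase on replication origins, and in S phase it unwinds the DNA for the polymerases that copy it. Cyclin B with Cdk1 opens mitosis, kinetochores on the centromeres attach the chromosomes, and the anaphase-promoting complex with Cdc20 degrades securin and cyclin B. Granulosa cells of the growing antral follicle divide under follicle-stimulating hormone, and the cumulus is the part of them next to the oocyte. Many late cell cycle genes share promoter elements, among them the CHR, where the DREAM complex binds, and the CCAAT box, bound by NF-Y. Replication genes often carry E2F sites.

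The promoters of 3 genes of different phases are shown: Ccnb1, Cenpa and Cdc20. They were chosen because each gene had a probe that was lower on both NSN-CCs arrays. This choice cannot show whether promoter elements go with lower values. The sequences are RefSeq's, on GRCm38.p6, 5′ to 3′ on the gene's strand, from 250 bases before to 30 after the start, with matches to CHR (TTTGAA) and CCAAT, on either strand, in capitals.
Ccnb1, chr13:100786457-100786736, minus strand: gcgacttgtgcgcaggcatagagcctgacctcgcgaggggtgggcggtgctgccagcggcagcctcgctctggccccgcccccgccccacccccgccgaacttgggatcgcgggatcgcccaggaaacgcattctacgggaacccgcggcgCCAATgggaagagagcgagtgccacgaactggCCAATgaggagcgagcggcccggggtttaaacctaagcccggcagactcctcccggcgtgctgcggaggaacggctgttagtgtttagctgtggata
Cenpa, chr5:30666636-30666915, plus strand: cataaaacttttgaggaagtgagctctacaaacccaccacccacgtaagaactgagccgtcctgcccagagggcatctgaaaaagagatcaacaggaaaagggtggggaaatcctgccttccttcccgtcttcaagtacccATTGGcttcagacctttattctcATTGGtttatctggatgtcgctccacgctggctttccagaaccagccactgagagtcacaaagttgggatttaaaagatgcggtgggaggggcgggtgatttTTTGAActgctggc
Cdc20, chr4:118437314-118437593, minus strand: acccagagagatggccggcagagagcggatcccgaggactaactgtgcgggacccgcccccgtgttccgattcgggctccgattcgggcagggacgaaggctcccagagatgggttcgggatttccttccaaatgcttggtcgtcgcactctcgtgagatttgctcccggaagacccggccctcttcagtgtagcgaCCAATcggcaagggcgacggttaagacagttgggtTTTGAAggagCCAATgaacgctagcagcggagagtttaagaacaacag

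All 3 promoters held 2 CCAAT boxes, at 67 and 99 bases before the start in Ccnb1, at 86 and 109 in Cenpa (as ATTGG, the reverse complement) and at 8 and 53 in Cdc20. Cdc20 had a CHR 18 bases before its start and Cenpa had one from base 17 after it, while the window of Ccnb1 held no TTTGAA. Promoters of 300 bases, reaching 50 bases past the start, were found for 62 of the 73 genes (71 promoters, since some genes have several), and not for Ccna2, Ccnd1, Ccnd2, Ccne2, Cdc25c, Cdk3, Cdk5, Cdk5r1, E2f4, E2f5 and Mcm4. On either strand, a CCAAT was in 60.6% of them against 37.4% of the 32851 promoters of the table, and TTTGAA in 25.4% against 17.9%. E2F sites spelled TTTCCCGC, TTTGGCGC, TTTCGCGC or TTTGCCGC, none of which contains or lies within another motif, were in 16.9% against 2.26%. These E2F spellings were in 12 genes, 5 of them replication genes (Cdc6, Mcm3, Mcm5, Mcm6 and Mcm7), and in no promoter of the G2 and mitotic entry or anaphase genes. A match is a description of the letters and not a measured binding site. Whether the motifs go with the fold changes of the members was not tested.

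The array of SN-CCs replicate 2 stood apart before any gene was compared. Over all probes its log2 signals correlated with those of the other arrays at r = 0.928 to 0.931, while the other 3 arrays correlated with each other at 0.993 to 0.996. The median spread between pools of the 115 member probes was an SD of 0.29 (log2) among the SN-CCs against 0.067 among the NSN-CCs. The members are thus given on all 4 arrays and without that array. The files hold no detection p-values, so each array was given a limit for background, the 95th percentile of 1371 probes of odorant, vomeronasal and taste receptors, genes used chiefly by sensory cells, which came to 116, 119, 120 and 116 signal units for SN-CCs 1 and 2 and NSN-CCs 1 and 2. Markers of granulosa cells were above it for 9 of 9 genes on 3 arrays and for 7 on SN-CCs replicate 2. In bulk RNA, fewer cells of a type and less RNA per cell cannot be told apart.

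Most of the cell cycle machinery was measurable in both types of CCs. A total of 52 genes had a probe above the limit on all 4 arrays, including the D cyclins, E2f1 to E2f6, Mcm2 and Mcm4 to Mcm6, Ccnb1, Plk1 to Plk4, Top2a, Cenpa, Bub3 and Cdc20. No probe was above it on any array for 13 genes (Anapc1, Anapc10, Anapc11, Aurkc, Bub1, Ccna1, Ccna2, Ccnb2, Ccnb3, Cdk3, Cdk7, Cenpc1 and Cenpe), which limits these probes and says nothing more of the genes. By probe, 66 of the 115 were above the limit on all arrays, 20 on some and 29 on none.

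No member passed the test between NSN-CCs and SN-CCs. With limma and Benjamini-Hochberg adjustment over all probes the smallest adjusted p of a member was 0.811, and 0 of 115 were called, as were 0% of all 25697 probes. At an unadjusted p under 0.05, 4 members were lower in NSN-CCs (beside 2.01% of all probes) and 1 was higher (beside 1.1%). Of the members, 66 (57.4%) had a log2 fold change below 0 (lower in NSN-CCs), close to the 56% of all probes, and their median was -0.083, beside -0.033 over all probes. Both NSN-CCs arrays were below both SN-CCs arrays for 40 members (34.8%, beside 22.2% of all probes) and above both for 17 (14.8%, beside 16%).

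Without SN-CCs replicate 2 the member median was -0.082, whereas the median of all probes was -0.00081. Then 77 of the 115 members were lower in NSN-CCs, beside 50.2% of all probes, and both NSN-CCs arrays were below SN-CCs replicate 1 for 66 (57.4%, beside 35.8%). These values rest on a single pool of SN-CCs. Without SN-CCs replicate 1 instead, 64 members and 9546 of all probes passed the adjusted test, with the array that stands apart as the only one of SN-CCs. The smallest adjusted p of a member was 0.27 (limma) without SN-CCs replicate 2. In what follows, the readings of a probe are deposited signals, and a signed value with its standard error (SE) is a log2 fold change of the normalized values, NSN-CCs minus SN-CCs. Where SN-CCs replicate 2 is below its limit on a probe, its reading is not above background and the size of the fold change on all arrays rests on it. Without that array 39 of the 115 members changed sign. The median of all probes was -0.43 in the deposited normalized table, -0.056 with median scaling and -0.058 with the filter on dim probes. It was -0.13 for all probes above the limit on all arrays. Class medians under these choices are to be read against those values.

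**Figure D1:**
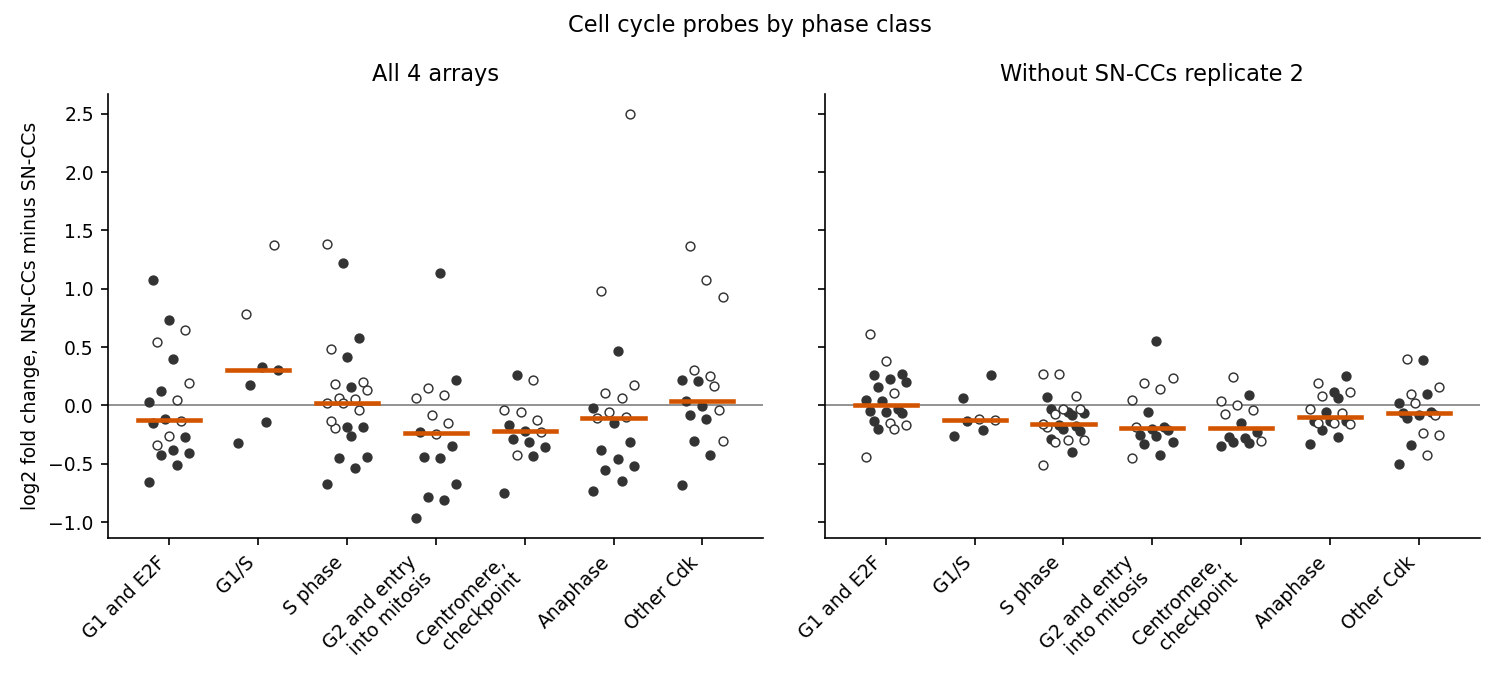
Log2 fold change (NSN-CCs minus SN-CCs, vertical axis) of each of the 115 member probes by phase class, with all 4 arrays (left) and without SN-CCs replicate 2 (right). Filled points are probes above the limit on all 4 arrays, open points are the others, and the bars are class medians. With the main normalization the medians of the G1/S and S phase classes are above 0 on the left (0.30 and 0.024) and below 0 on the right (-0.12 and -0.16), while those of the G2, centromere and anaphase classes are below 0 on both sides.

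The G1 class (20 probes of 11 genes: the D cyclins, Cdk6 and the E2F factors) showed no common direction. Its median was -0.12 with all arrays and 0.0072 without SN-CCs replicate 2, with 11 and 10 of the 20 probes lower in NSN-CCs. It was -0.34 with 1 probe a gene and -0.24 in the deposited normalized table (all probes, -0.43). A total of 13 probes were above the limit on all arrays, and values ran from -0.65 (E2f3) to 1.07 (a probe of E2f6). The D cyclins bind Cdk4 and Cdk6 and carry growth signals into the cycle, and the 3 probes of Ccnd3 did not lie the same way. The probe with the smallest p read 148 and 96.6 in the SN-CCs pools and 197 and 174 in the NSN-CCs pools, a log2 fold change of 0.64 (SE 0.26, adjusted p = 0.811, limma) that was 0.38 without SN-CCs replicate 2, where it was below the limit, and 0.055 in the deposited normalized table. The NSN-CCs arrays were above both SN-CCs arrays, by less than the gap between the SN-CCs arrays. Another Ccnd3 probe gave 1399 and 904 in the SN-CCs pools and 1417 and 1528 in the NSN-CCs pools (log2 fold change 0.40, SE 0.17). The third, near the limit, read 115 and 120 in the SN-CCs pools and 110 and 104 in the NSN-CCs pools (-0.26, SE 0.15), lower on both NSN-CCs arrays. Ccnd2, the D cyclin of proliferating granulosa cells in the mouse, read 3515 and 1016 in the SN-CCs pools and 2873 and 3294 in the NSN-CCs pools, so that only SN-CCs replicate 2 was set apart (0.73 on all arrays, -0.057 without it).

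Among the E2F factors, E2f6, a repressor of E2F targets, read 4161 and 5520 in the SN-CCs pools and 3316 and 3167 in the NSN-CCs pools. Both NSN-CCs arrays were below both SN-CCs arrays, with a log2 fold change of -0.38 (SE 0.18, adjusted p = 0.811, limma), -0.67 with median scaling and -0.20 without SN-CCs replicate 2. Its other probes gave 0.033 and 1.07, and the probe at 1.07 read 457 in SN-CCs replicate 1 and 126 in replicate 2. E2f1, an activator of S phase genes, read 1633 and 2183 in the SN-CCs pools and 1445 and 1247 in the NSN-CCs pools (log2 fold change -0.41, SE 0.24). The member with the smallest p on the higher side was a probe of E2f2 (the only member with an unadjusted p under 0.05 there), with 78.2 and 84.9 in SN-CCs against 115 on both NSN-CCs arrays. All 4 of these signals are below the limit of their array, so no fold is given, and the other E2f2 probes gave 0.12 and -0.27.

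The G1/S class (7 probes of Ccne1, Ccne2, Cdk2 and Cdc25a) turned with a single array. Its median log2 fold change was 0.30, with 5 probes higher in NSN-CCs, and -0.12 without SN-CCs replicate 2, with 5 lower. With 1 probe a gene it was 0.018 on all arrays, since 4 of the 7 probes are of Cdk2. It was 0.18 for probes above the limit on all arrays (all such probes, -0.13) and 0.20 in the deposited normalized table (all probes, -0.43). Values ran from -0.32 to 1.37, both on probes of Cdk2 (the latter with SN-CCs replicate 2 below the limit), and 5 probes were above the limit on all arrays. For Cdk2, the kinase partner of cyclins E and A, the probe with the highest signal read 4377 and 5208 in the SN-CCs pools and 3453 and 3321 in the NSN-CCs pools. That probe was lower on both NSN-CCs arrays (log2 fold change -0.32, SE 0.15, adjusted p = 0.811, limma), -0.60 with median scaling and -0.21 without SN-CCs replicate 2. A second Cdk2 probe read 358 and 171 in the SN-CCs pools and 348 and 362 in the NSN-CCs pools (0.33, SE 0.22), with 0.20 in the deposited normalized table and 0.065 without that array. Ccne1 read 194 and 144 in the SN-CCs pools and 182 and 165 in the NSN-CCs pools (-0.14, SE 0.14), and Cdc25a, a phosphatase that activates Cdk2, read 564 and 457 in the SN-CCs pools and 590 and 659 in the NSN-CCs pools (0.18, SE 0.16).

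The S phase class (23 probes of 11 genes) had a median of 0.024 with 10 probes lower in NSN-CCs, and of -0.16 with 19 lower when SN-CCs replicate 2 was left out. The median was also below 0 in other fits that kept all 4 arrays, but so was the median of all probes where it was taken. It was -0.042 with median scaling (all probes, -0.056) and -0.028 with the filter on dim probes (-0.058). In the deposited normalized table it was -0.38 (-0.43), and for probes above the limit on all arrays -0.19 (-0.13). With 1 probe a gene the class median was -0.18. Values ran from -0.67 (Pcna) to 1.38 (Mcm3), and 11 probes were above the limit on all arrays. Cdc6, which loads the MCM helicase onto origins, was among the 4 members with an unadjusted p under 0.05 on the lower side. Its probe read 349 and 245 in the SN-CCs pools and 269 and 241 in the NSN-CCs pools. The signals overlap, and only after normalization were both NSN-CCs arrays below both SN-CCs arrays (log2 fold change -0.44, SE 0.14, adjusted p = 0.811, limma, -0.29 with median scaling and -0.40 without SN-CCs replicate 2). Cdc7, the kinase that fires origins, read 1546 and 1911 in the SN-CCs pools and 1209 and 1215 in the NSN-CCs pools (-0.45, SE 0.20).

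Of the helicase subunits, Mcm4 read 7126 and 7505 in the SN-CCs pools and 5617 and 5263 in the NSN-CCs pools. The signals did not overlap, with a log2 fold change of -0.19 (SE 0.13, adjusted p = 0.811, limma), -0.53 with median scaling and -0.17 without SN-CCs replicate 2. Mcm5 lay the same way, with 3588 and 4154 in the SN-CCs pools and 2707 and 3082 in the NSN-CCs pools (-0.26, SE 0.16). Mcm3 and Mcm7 read 700.4 and 370 in SN-CCs replicate 1 but 99.9 and 93.7, below the limit, in SN-CCs replicate 2. In NSN-CCs Mcm3 read 642 and 628 and Mcm7 read 256 and 248, and their fold changes of 1.38 and 0.48 on all arrays were -0.030 and -0.51 without SN-CCs replicate 2. Pcna, the sliding clamp of the replicative polymerases, read 205 and 239 in the SN-CCs pools and 164 and 168 in the NSN-CCs pools (-0.67, SE 0.31). Tk1, thymidine kinase of the S phase, read 716 and 247 in the SN-CCs pools and 711 and 674 in the NSN-CCs pools, so that SN-CCs replicate 2 alone was low (0.58, SE 0.37, and 0.077 without it).

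The genes of G2 and of entry into mitosis (16 probes of 13 genes) lay lower in NSN-CCs whether or not SN-CCs replicate 2 was used, with 11 of 16 probes lower in each case and medians of -0.24 and -0.19. The median was -0.45 with the filter on dim probes (all probes, -0.058) and -0.51 in the deposited normalized table (all probes, -0.43). Both NSN-CCs arrays were below both SN-CCs arrays for 7 of the 16 (43.8%, beside 22.2% of all probes and 28.0% of those above the limit on all arrays). The share was 30.0% in the G1 class, where as many probes (6 of 20) had both NSN-CCs arrays above. It was 28.6% in the G1/S, 30.4% in the S phase, 33.3% in the anaphase and 23.5% in the other Cdk class. Values ran from -0.96 (Plk4) to 1.13 (Top2a), and 10 probes were above the limit on all arrays. The summed signal of oocyte markers was also lower in NSN-CCs (4019 and 3984, beside 4879 and 5088 in SN-CCs), and its part in these values was not tested. Ccnb1, cyclin B1, is the partner of Cdk1 that opens mitosis, and its promoter is printed above. It was the only gene of the class with an unadjusted p under 0.05, and both of its probes had one. Its probe with the higher signal read 2300.1 and 2125 in the SN-CCs pools and 1558 and 1551 in the NSN-CCs pools, and the other read 1377 and 1365 in the SN-CCs pools and 967 and 1040.2 in the NSN-CCs pools. The groups did not overlap on either probe. The SN-CCs were 1.36-fold higher by both (log2 fold changes of -0.44, SE 0.13, and -0.45, SE 0.16, adjusted p = 0.811 for both, limma). Without SN-CCs replicate 2 the values were -0.43 and -0.31.

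Cdc25c, the phosphatase that activates cyclin B with Cdk1, had 2 probes above the limit and both NSN-CCs arrays were below both SN-CCs arrays on each. They read 532 and 926, and 557 and 868, in SN-CCs and 420 and 452, and 421 and 459, in NSN-CCs. The log2 fold changes of -0.81 (SE 0.42) and -0.78 (SE 0.38) were -0.21 and -0.25 without SN-CCs replicate 2, which carried the high values. Plk1, the Polo-like kinase of mitosis, likewise read 990 and 2058 in the SN-CCs pools and 878 and 870 in the NSN-CCs pools (-0.67, SE 0.44, and -0.056 without SN-CCs replicate 2). Plk4, which starts centriole duplication, read 244 and 452 in the SN-CCs pools and 241 and 162 in the NSN-CCs pools (-0.96, SE 0.56). Plk3, a Polo-like kinase with a role in stress responses, lay the other way, at 405 and 462 in the SN-CCs pools and 553 and 550.2 in the NSN-CCs pools (0.22, SE 0.28, and 0.55 without SN-CCs replicate 2).

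Top2a, the topoisomerase that untangles sister chromatids, turned direction with a single array. It read 4030.1 in SN-CCs replicate 1, 494 in replicate 2, and 3105 and 3223 in NSN-CCs. The log2 fold change was 1.13 (SE 0.93, adjusted p = 0.811, limma) with all arrays and -0.20 without SN-CCs replicate 2, which alone was low.

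**Figure D2:**
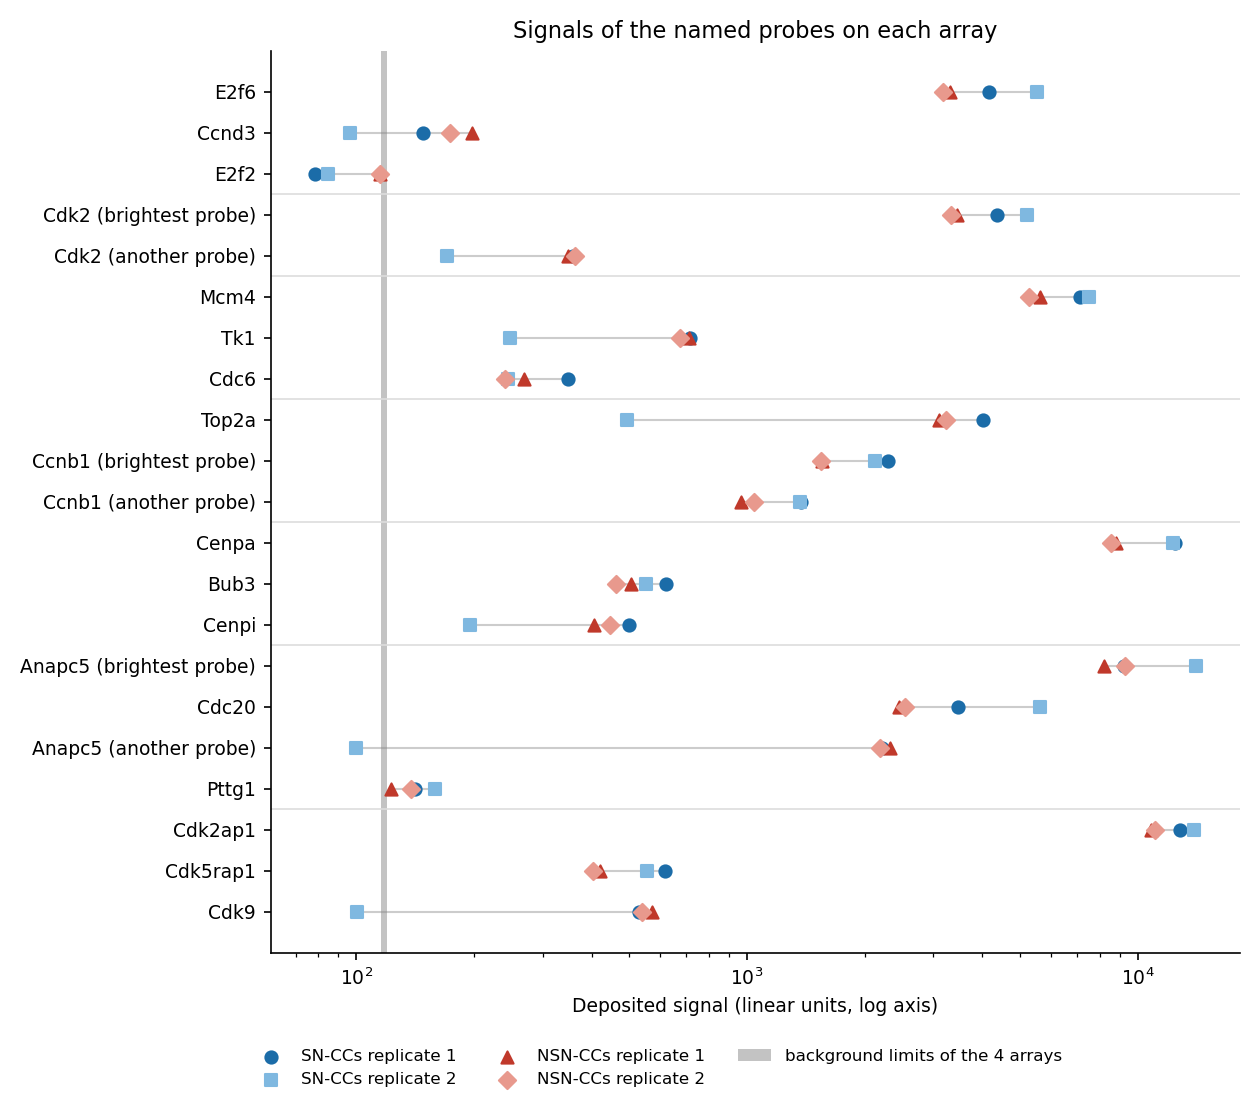
Deposited signal (log axis, before normalization between arrays) of the probes chosen by rule in each phase class, class by class in the order of the text, on the 4 arrays. The grey band spans the background limits of 116 to 120. The NSN-CCs points lie to the left of both SN-CCs points for both Ccnb1 probes, Cenpa, Mcm4, Cdc20 and Cdk5rap1, whereas for Top2a, Tk1, Cdk9 and another probe of Anapc5 the square of SN-CCs replicate 2 lies far to the left of the other 3 arrays.

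The centromere, kinetochore and checkpoint class (14 probes of 13 genes) had, with all arrays and among the probes that the rule took, the largest share of lower probes of the 7 classes. In it 12 of 14 probes were lower in NSN-CCs (median -0.22), and 10 of 14 without SN-CCs replicate 2 (median -0.19). The deposited normalized table gave a median of -0.40, not below the -0.43 of all probes there. Both NSN-CCs arrays were below both SN-CCs arrays for 8 of 14 (57.1%, beside 22.2% of all probes and 28.0% of those above the limit on all arrays). No member passed the adjusted test. Values ran from -0.75 (Cenpl) to 0.26 (Cenpi), and 8 probes were above the limit on all arrays. Cenpa, the histone H3 variant that marks the centromere, read 12447 and 12339.5 in the SN-CCs pools and 8819 and 8545 in the NSN-CCs pools. In deposited signal the SN-CCs pools were nearly equal and the NSN-CCs pools lay well below them. The normalized log2 values were 13.54 and 13.43 in the SN-CCs pools and 13.22 and 13.18 in the NSN-CCs pools. Their log2 fold change was -0.29 (SE 0.14, adjusted p = 0.811, limma), and it was -0.62 with median scaling and -0.35 without SN-CCs replicate 2. Its promoter, printed above, holds both a CHR and CCAAT boxes, and their relation to these values was not tested.

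Bub3, a sensor of unattached kinetochores, read 622 and 551 in the SN-CCs pools and 505 and 462 in the NSN-CCs pools. The groups did not overlap (log2 fold change -0.43, SE 0.17, adjusted p = 0.811, limma), and the value was -0.28 in the deposited normalized table and -0.27 without SN-CCs replicate 2. Its partner Bub1b gave -0.22 and -0.28 with and without that array. Centromere proteins of the class lay on both sides, as did those under older symbols, which the rule did not take and which are given further below. Cenpl read 1206 and 1840.2 in the SN-CCs pools and 922 and 836 in the NSN-CCs pools (-0.75, SE 0.31, and -0.33 without SN-CCs replicate 2). Cenpp read 859 and 632 in the SN-CCs pools and 670.3 and 619 in the NSN-CCs pools (-0.32, SE 0.14, and -0.31), and Cenph gave -0.36 and -0.23. Cenpj, a centriole protein despite its symbol, read 143 and 136 in the SN-CCs pools and 114 and 125 in the NSN-CCs pools, near the limit (-0.42, SE 0.18, and -0.30). Cenpi lay the other way with all arrays, at 499 and 195 in the SN-CCs pools and 406 and 445 in the NSN-CCs pools (0.26, SE 0.31), and it was 0.41 with median scaling and -0.15 without SN-CCs replicate 2.

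The anaphase class (18 probes of 10 genes) had 12 probes lower in NSN-CCs, with a median of -0.10, with and without SN-CCs replicate 2. Other choices moved the median on all arrays, to -0.15 with median scaling (all probes, -0.056) and -0.35 with the filter on dim probes (-0.058). It was also -0.35 with 1 probe a gene. For probes above the limit on all arrays it was -0.42 (all such probes, -0.13), and in the deposited normalized table -0.45 (all probes, -0.43). Values ran from -0.73 to 2.50, both on probes of Anapc5 (the latter with SN-CCs replicate 2 below the limit), and 10 probes were above the limit on all arrays. Cdc20, which activates the anaphase-promoting complex and whose promoter is shown above, had 4 probes. The probe with the smallest p read 3469 and 5632 in the SN-CCs pools and 2446 and 2543 in the NSN-CCs pools, with the groups apart (log2 fold change -0.65, SE 0.25, adjusted p = 0.811, limma, and -0.33 without SN-CCs replicate 2). The other 3 Cdc20 probes gave -0.024, 0.47 and 0.98 with all arrays, but -0.056, -0.13 and -0.027 without that array, so that all 4 were below 0 only then. Pttg1, securin, which the study names, read 141 and 159 in the SN-CCs pools and 123 and 138 in the NSN-CCs pools, close to the background limit on every array. Its log2 fold change was -0.46 (SE 0.27, adjusted p = 0.811, limma) and -0.14 without SN-CCs replicate 2. By its own test and cut-offs the study lists Pttg1, and also Plk4 and Cenpj, as down-regulated in NSN-CCs. It also found Pttg1 to have the most neighbours in its gene network.

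Among subunits of the anaphase-promoting complex, Anapc13 read 5263 and 7993 in the SN-CCs pools and 3627 and 4024 in the NSN-CCs pools (-0.55, SE 0.23, and -0.27 without SN-CCs replicate 2), and Anapc4 gave -0.52 and -0.21. The probes of Anapc5 gave opposite pictures. That with the highest signal in the class read 9248 and 14083 in the SN-CCs pools and 8190.3 and 9281 in the NSN-CCs pools (-0.15, SE 0.24, -0.50 with median scaling and 0.12 without SN-CCs replicate 2). Another read 2214, 2327 and 2191 on SN-CCs replicate 1 and the NSN-CCs arrays but 99.9, below the limit, on SN-CCs replicate 2 (2.50, SE 1.58, and 0.19 without it).

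The remaining members, 17 probes of 11 genes whose symbols begin with Cdk, have mostly other tasks, in transcription (Cdk7, Cdk8 and Cdk9) or in neurons (Cdk5). They had a median of 0.039 with 8 probes lower in NSN-CCs, and of -0.062 with 10 lower without SN-CCs replicate 2. The median was 0.081 with median scaling (all probes, -0.056) and -0.12 in the deposited normalized table (all probes, -0.43). For probes above the limit on all arrays it was -0.079 (all such probes, -0.13). Values ran from -0.68 (Cdk5rap1) to 1.37 (Cdk9, with SN-CCs replicate 2 below the limit), and 9 probes were above the limit on all arrays. Cdk5rap1, which modifies mitochondrial transfer RNA, had among its 3 probes the fourth member with an unadjusted p under 0.05 on the lower side. It read 618 and 556 in the SN-CCs pools and 422 and 405 in the NSN-CCs pools, and SN-CCs were 1.60-fold higher with no overlap (log2 fold change -0.68, SE 0.17, adjusted p = 0.811, limma, and -0.50 without SN-CCs replicate 2). Its other probes gave -0.0067 and 0.17 with all arrays, and -0.34 and -0.43 without that array. Cdk2ap1, an inhibitor of Cdk2, read 12808 and 13909 in the SN-CCs pools and 10829 and 11056 in the NSN-CCs pools (-0.079, SE 0.13, and -0.40 with median scaling). Cdk9, the kinase of productive elongation, read 529 in SN-CCs replicate 1, 100.5, below the limit, in replicate 2, and 571 and 538 in NSN-CCs (1.37, SE 0.83, 0.72 in the deposited normalized table and 0.16 without SN-CCs replicate 2).

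These disagreements between probes of the same gene were widest on SN-CCs replicate 2. In 13 member genes at least 2 probes were above the limit on the other 3 arrays. SN-CCs replicate 2 itself was not held to its limit, and a probe of Anapc5 read 99.9 there. Its ranges can be wider through this choice alone. The probes of a gene differed from each other in their log2 distance from SN-CCs replicate 1 by a median of 1.41 on SN-CCs replicate 2 (0.13 to 5.77), against 0.30 and 0.26 on the NSN-CCs arrays. SN-CCs replicate 2 had the widest range in 12 of the 13 genes, and in 1936 of 2391 genes over the whole array. The probes of Mcm6 show it: in SN-CCs replicates 1 and 2 they read 5292 and 2649, 2658 and 357, and 1743 and 2514. With all arrays the fold changes of the probes had opposite signs in 8 of the 13 genes, and in 5 of them without that array. Of 78 member probes above the limit on the other 3 arrays, 12 (15.4%) were at or below it on SN-CCs replicate 2, as were 15.0% of such probes over the array. Probes at or below the limit on another array alone were not counted. The cause of the disagreements was not tested.

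**Figure D3:**
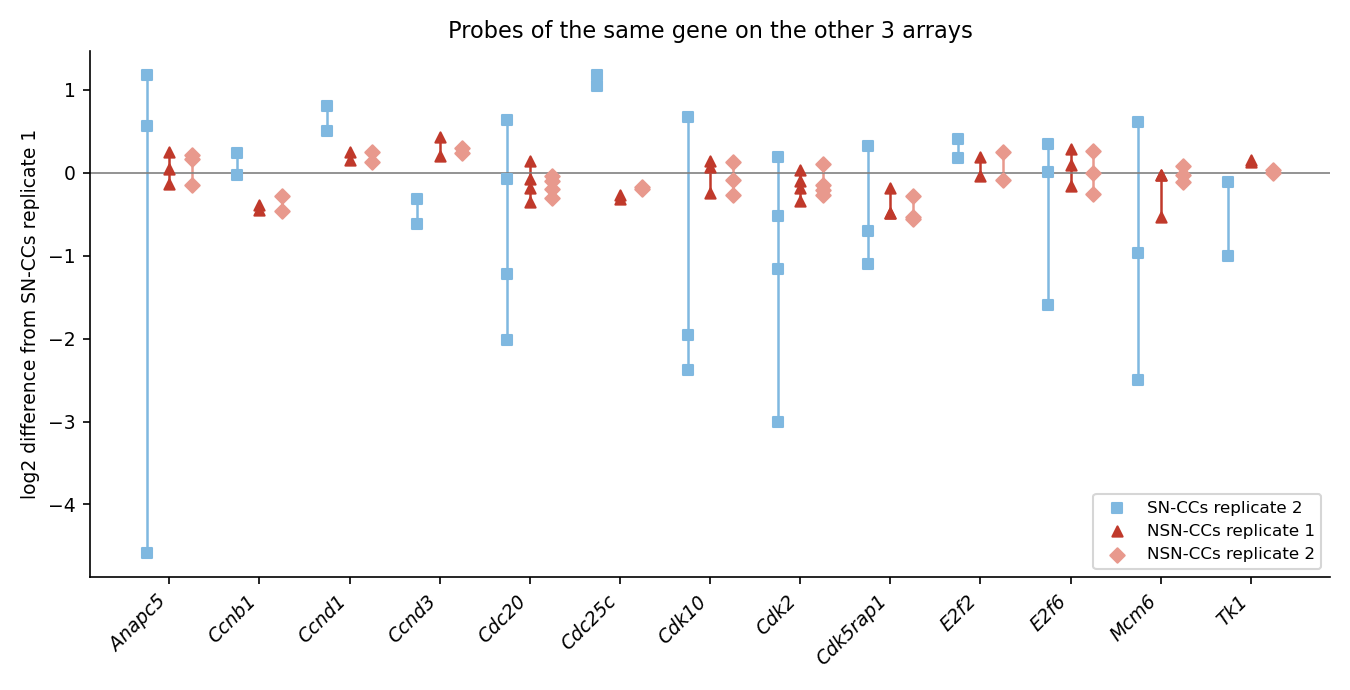
Log2 difference from SN-CCs replicate 1 (vertical axis, normalized values) of each probe of the 13 member genes with at least 2 probes above the limit on the other 3 arrays. Lines join the probes of a gene on an array. SN-CCs replicate 2 itself was not held to its limit. On SN-CCs replicate 2 the probes of Anapc5 spread from -4.59 to 1.18 and those of Cdc20 from -2.01 to 0.64, while on the NSN-CCs arrays the probes of a gene lay within 0.52 of each other.

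Related genes that the rule did not take were read on the probe of each gene with the highest signal. Some have further probes, such as Nusap1 and Cdkn1a with 3 each, and the others were not read. For comparison, 56% of all probes and 62.5% of those above the limit on all arrays had a value below 0. Without SN-CCs replicate 2 it was 50.2% of all probes. At an unadjusted p under 0.05, 2.01% of all probes were lower in NSN-CCs and 1.1% were higher. Of 33 other mitotic genes, 24 had a value below 0 (lower in NSN-CCs) and 9 above it (median -0.24), and 27 were lower with a median of -0.13 without SN-CCs replicate 2. The adjusted test called 0 of them, and 3 had an unadjusted p under 0.05, all on the lower side: Ndc80, an outer kinetochore protein that binds microtubules (-0.87), Nusap1, a spindle protein (-0.73), and Tpx2, which activates Aurora A on the spindle (-0.57). Nusap1 read 2035 and 2240.0 in the SN-CCs pools and 1265 and 1193 in the NSN-CCs pools (SE 0.16, adjusted p = 0.811, limma, and -0.57 without SN-CCs replicate 2). On the higher side, Kif20a had the smallest p but was below the limit on all arrays, with 83.4 and 95.3 in the SN-CCs pools and 118 and 100.2 in the NSN-CCs pools.

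Of 35 other replication genes 33 were found, 27 lower (81.8%, beside 56% of all probes) and 6 higher, with a median of -0.16. Without SN-CCs replicate 2, 22 were lower (66.7%, beside 50.2%) with a median of -0.10. Again 0 passed the adjusted test. Rpa3, the small subunit of the protein that coats single-stranded DNA, read 2958 and 4649 in the SN-CCs pools and 1550.3 and 1499 in the NSN-CCs pools, with no overlap (-1.18, SE 0.25, adjusted p = 0.811, limma, and -0.82 without SN-CCs replicate 2). Mcm10 (-0.73) and Rrm2, a subunit of ribonucleotide reductase (-1.02), also had an unadjusted p under 0.05 (beside 2.01% of all probes on the lower side). On the higher side, Orc1 had the smallest p, with all 4 signals below the limit.

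Brakes of the cycle went both ways. Of the 11 CDK inhibitors and pocket proteins 10 were found, 6 lower (beside 56% of all probes) and 4 higher with a median of -0.20. Without SN-CCs replicate 2, 5 were lower with a median of -0.014 (beside 50.2% of all probes). The adjusted test called 0. At an unadjusted p under 0.05 Rb1 (-0.65), its relative Rbl1 (-0.75) and Cdkn2c, an inhibitor of Cdk4 and Cdk6 (-0.45), were lower in NSN-CCs (beside 2.01% of all probes). Cdkn1a and Cdkn2d were higher (beside 1.1%). Cdkn2c read 758 and 549 in the SN-CCs pools and 540 and 508 in the NSN-CCs pools (SE 0.13, adjusted p = 0.811, limma). Cdkn1a, p21, which halts the cycle after damage, read 1350.0 and 942 in the SN-CCs pools and 1582 and 1638 in the NSN-CCs pools, with both NSN-CCs arrays above both SN-CCs arrays (0.53, SE 0.15, adjusted p = 0.811, limma, and 0.41 without SN-CCs replicate 2).

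Transcripts of oocytes lay mostly lower in NSN-CCs. Of 14 oocyte markers 13 were found, and 10 were above the limit on all arrays. Their summed signal was 4879 and 5088 in the SN-CCs pools and 4019 and 3984 in the NSN-CCs pools. Of the 13, 12 were lower in NSN-CCs (median -0.44), beside 56% of all probes and 62.5% of those above the limit on all arrays. Without SN-CCs replicate 2 all 13 were lower (median -0.18), beside 50.2% of all probes. Bmp15, a growth factor made by the oocyte, read 558 and 498 in the SN-CCs pools and 363 and 376 in the NSN-CCs pools (-0.71, SE 0.17, adjusted p = 0.811, limma), and of the defining markers Zp2 was not above the limit on any array. Oocytes also express cyclin B1, Cdc20 and other members, and the part of oocyte RNA in the members' values was not tested. Beside them, the summed signal of granulosa markers was 115714 and 80475 in the SN-CCs pools and 114609 and 112786 in the NSN-CCs pools. Within it, Inha alone read 46056 and 3760 against 45170 and 43879. On normalized values SN-CCs replicate 2 was the lowest array for 5 of the 9 granulosa genes and the highest for 1. By log2 fold change 2 of these 9 genes were lower in NSN-CCs and 7 higher (median 0.20). Without SN-CCs replicate 2, 3 were lower and 6 higher (median 0.039). The sum of theca and stroma was 6514 and 10702 against 6159.6 and 6278. That of leukocytes was 1081 and 1062 against 1195 and 1262, and of endothelium 903 and 826 against 913 and 883. Erythroid genes summed to 13297 and 9051 against 15291 and 15876, of which Hba-a1 read 12295 and 7965 against 14494 and 15008. By log2 fold change 3 of the 5 erythroid genes were lower in NSN-CCs.

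**Figure D4:**
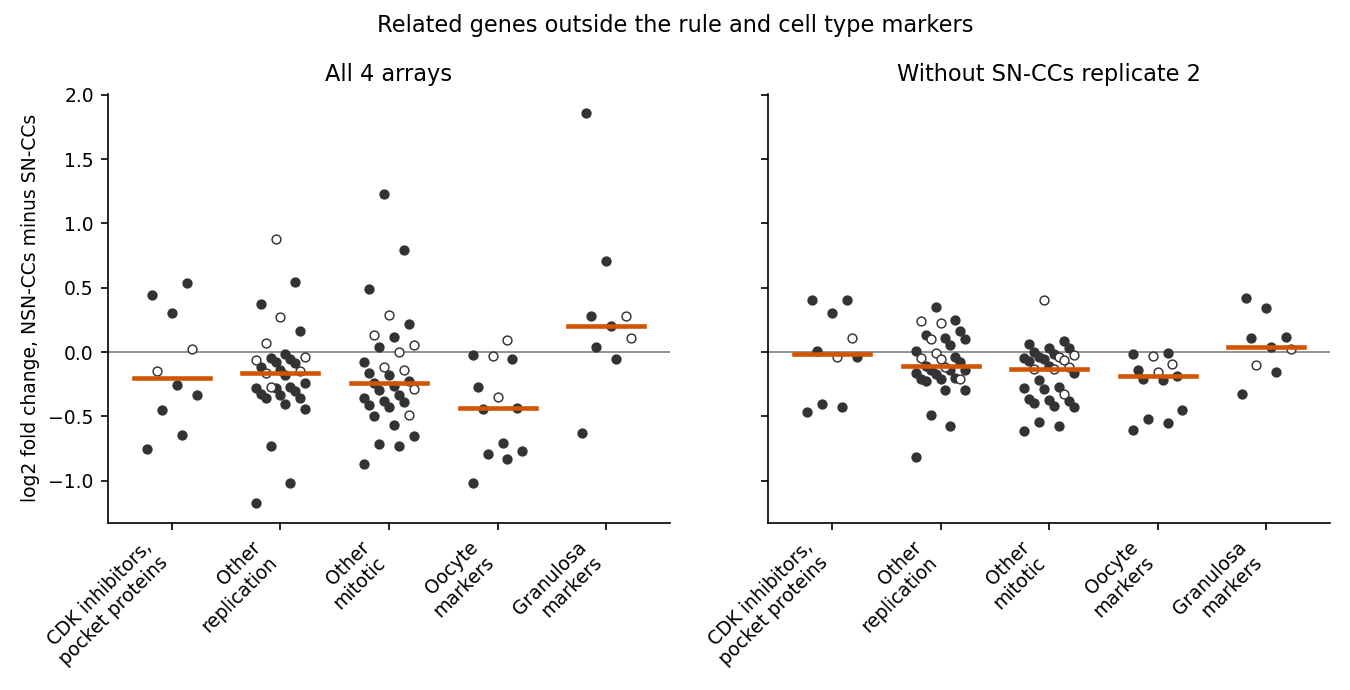
Log2 fold change (NSN-CCs minus SN-CCs, vertical axis) of related genes outside the rule and of oocyte and granulosa markers, 1 probe a gene, with all 4 arrays (left) and without SN-CCs replicate 2 (right). Filled points are above the limit on all arrays, open points are the others, and bars are medians. The medians of the other mitotic genes are -0.24 and -0.13, those of the oocyte markers -0.44 and -0.18, and those of the granulosa markers 0.20 and 0.039.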

How the data were processed

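RNA from each of the 4 pools, 2 of either type of CCs, was hybridised to Illumina mouse BeadChips and read with BeadStudio (version 3 in the submitters' processing notes). The deposited intensities are probe signals on a linear scale, with neither background subtraction nor scaling between arrays. A second deposited table holds intensities that the authors had background-subtracted and normalized with BeadStudio's rank invariant method, and it served as an alternative. Neither holds detection p-values, and how many beads lie behind a signal is unknown, so the number of arrays limits the precision. The genome build of the array is not given in the sources used here. Signals of all 25697 probes were corrected with normexp (offset 50), quantile normalized and log2 transformed. NSN-CCs were set against SN-CCs without covariates by the lmFit and eBayes functions of limma 3.58.1 (R 4.3.3), with Benjamini-Hochberg adjustment over all probes and a call at an adjusted p under 0.05. The fit was also run on simulated data that gave both types of CCs the same spread. That run does not cover the unequal spread of these pools. The study's permutation-based test is given without details, and limma stands in for it. Groups came from the sample titles.

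Members, phase classes, lists and the background limit were chosen with earlier results of these data known, so no test was made over a list. The genes named are, in each class, the probe with the highest mean signal and those with the smallest p in each direction among probes above the limit on both arrays of a type of CCs, every member with an unadjusted p under 0.05, Pttg1, and, in each related list, the gene with the smallest p in each direction. Other members and list genes were named after their values were seen. Alternatives were the deposited normalized table, no background correction, median scaling, a filter on dim probes, leaving out each array, a replicate block, array weights and 1 probe a gene. Added after seeing the data were membership by current symbol and only probes above the limit on all arrays.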

Additional observations from a re-analysis of the deposited data

How the results depend on the processing

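The number of members called stayed at 0 under every alternative except without SN-CCs replicate 1, where 64 were called (range over the arrays left out, 0 to 64). All probes then gave 9546 calls, and the spread came from the NSN-CCs pools, with the lone SN-CCs array assumed to vary like them. Without SN-CCs replicate 2, treated in the same way, 0 members and 1 probe in all were called. The count of members lower in NSN-CCs ran from 63 to 77 and their median log2 fold change from -0.091 to -0.082 over the arrays left out. The member median was -0.37 in the deposited normalized table (85 of 115 lower), which shifted the median of all probes to -0.43 and where the lowest value on SN-CCs replicate 2 was 182 against 66 to 69 on the other arrays. It was -0.10 with median scaling, -0.17 with the filter on dim probes (79 probes), -0.18 with 1 probe a gene (73 probes), -0.27 for the 66 probes above the limit on all arrays (all such probes, -0.13) and -0.057 for 152 probes by current symbol. Of the probes named by rule, those of Top2a (-0.20), Cenpi (-0.15) and Anapc5 (0.12, the probe with the highest signal) reversed without SN-CCs replicate 2 (over the arrays left out, Top2a ran up to 2.51, Cenpi up to 0.67 and this Anapc5 probe down to -0.43), and the values of E2f2, whose signals are all below the limit and give no order, had the other sign in the deposited table (-0.18). Over all 115 members 39 changed sign without SN-CCs replicate 2, among them probes of Ccnd2, Mcm3, Mcm7 and 2 of Cdc20. Where median scaling or the deposited table moved a probe named by rule by over 1.5 times, the moved value is given with that probe above. For these reversals and shifts the cause was not tested.

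Deviations of same-numbered pools from their group means correlated at 0.041 over all probes. The deviations of the SN-CCs pools include the array that stands apart, so this value cannot show whether the replicate numbers pair the pools. With the replicate number as a block 0 members were called, 66 had a value below 0, the median was -0.083, and 4 had an unadjusted p under 0.05. Probes near the background limit, Pttg1 among them, are limited by signal.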

Other observations

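Several well-known mitotic genes are on the array under older symbols, which the rule by symbol did not take. By current symbol 37 further probes of 21 genes would belong to the families. Of these, 18 were lower (48.6%, beside 56% of all probes) and 19 higher in NSN-CCs (median 0.052), with 0 called. At an unadjusted p under 0.05 (limma) there were 3, all lower (beside 2.01% of all probes). Aurka, the Aurora kinase of the spindle poles, read 1997 and 2052 in the SN-CCs pools and 1393 and 1351 in the NSN-CCs pools, with both NSN-CCs arrays below both SN-CCs arrays (log2 fold change -0.49, SE 0.14, and -0.38 without SN-CCs replicate 2). Cenpk, a centromere protein, read 460.4 and 604 in the SN-CCs pools and 286 and 275 in the NSN-CCs pools (-1.11, SE 0.33, and -0.66), and Cenpq, another, read 432 and 386 in SN-CCs against 326 in both NSN-CCs pools (-0.54, SE 0.18, and -0.34). Other centromere proteins lay the other way with all arrays: the 3 probes of Cenpm gave 0.33, 0.61 and 0.24 (0.15, -0.21 and 0.16 without SN-CCs replicate 2) and Cenpt gave 0.41 (0.10). The probes of Cenpn gave 0.45 and -0.50 with all arrays, and those of Cenpx 0.24, -0.16 and -0.61. Cenps gave -0.74, and a further probe of Cenpk, below the limit on all arrays, was near 0. The centromere proteins under older symbols thus had no common direction. Cdk1, the kinase that cyclin B1 activates, read 2819 and 420 in the SN-CCs pools and 2044 and 1907 in the NSN-CCs pools. Like Top2a it was low on SN-CCs replicate 2 alone, and its log2 fold change was 0.79 (SE 0.83) with all arrays and -0.38 without that array. These genes were named after their values were seen.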
